A study of Mus musculus with 9 samples.

Results

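The genes described here supply peptides to major histocompatibility complex (MHC) class I molecules and display them at the cell surface. They were listed by symbol, with earlier results of these data known: the heavy chains H2-K1 and H2-D1, the light chain B2m, the peptide transporter subunits Tap1 and Tap2, the loading factor Tapbp, the immunoproteasome subunits Psmb8, Psmb9 and Psmb10, and the transactivator Nlrc5. All 10 matched 1 row each of the 53465 gene rows in the deposited counts, and all 10 passed the filter on low counts that left 13825 genes for testing. RNA came from the hearts of NOD-SCID mice in 3 groups of 3 libraries, with the infarct border zone named as the sampled region in each. The sham group had surgery without ligation, the ligation group had a coronary artery tied, and the cell group had the same ligation and implantation of FOXO3-GE-MPCs. For cell replicates 2 and 3 the source field names FOXO4 and FOXO5 where the title and the treatment field name FOXO3, and the title was followed. Age, sex and the time from surgery to sampling are not given in the sources used here, nor is the species of the implanted cells. All 3 groups share the strain, whose scid mutation prevents mature T and B lymphocytes while myeloid cells remain.

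Class I molecules show fragments of the cell's own proteins to CD8 T cells and natural killer cells. Proteasomes cut the fragments, and interferon exchanges the constitutive catalytic subunits Psmb5, Psmb6 and Psmb7 for Psmb8, Psmb9 and Psmb10. The Tap1-Tap2 transporter carries the fragments into the endoplasmic reticulum, where tapasin (Tapbp) holds the empty heavy chain with its light chain beta-2-microglobulin (B2m) until a peptide binds. Nlrc5 raises transcription of several of these genes by joining RFX, CREB/ATF and NF-Y factors already bound to their promoters. In the heart, endothelial cells and macrophages are known for high class I levels and cardiomyocytes for low ones.

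Libraries held 4549268 to 7515052 gene counts, and the fewest counts of any of the 10 genes in any library were 76, for Nlrc5 in ligation replicate 1. Mitochondrially encoded genes took 12.5% to 19.9% of gene counts, with every sham library above every other library. The header names of sham replicates 1 and 2 share a stem, as do those of ligation replicates 2 and 3, so these may not be separate animals. The chi-square between the counts of the 2 libraries averaged 3.96 and 2.30 per gene in these pairs, against 1.98 to 3.65 in the other pairs within a group, where sampling alone gives about 1. No pair differed as little as sampling alone, so all 9 libraries were kept, and whether a shared stem means a shared animal was not tested. Nothing states that libraries of a group came from separate mice, so p-values measure the spread between these libraries.

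The promoters of H2-K1, H2-D1 and B2m, and the interval between the starts of Tap1 and Psmb9, are shown because the first 3 genes carry the surface molecule itself and the last 2 share 1 stretch of DNA between divergent starts. The first 3 sequences are the 250 bases before the gene start, read 5′ to 3′ on the gene's strand, and the last is the 225 bases between the starts of Tap1 and Psmb9. All are from RefSeq on GRCm38.p6, the assembly that mm10 names. Capitals mark matches on either strand to the core of the interferon-stimulated response element (ISRE: GAAA, 2 bases of any kind, GAAA), to the NF-kB consensus, to TGACG (the core bound by CREB/ATF factors) and to CCAAT or its complement ATTGG (bound by NF-Y).
H2-K1, chr17:34000348-34000597, minus strand: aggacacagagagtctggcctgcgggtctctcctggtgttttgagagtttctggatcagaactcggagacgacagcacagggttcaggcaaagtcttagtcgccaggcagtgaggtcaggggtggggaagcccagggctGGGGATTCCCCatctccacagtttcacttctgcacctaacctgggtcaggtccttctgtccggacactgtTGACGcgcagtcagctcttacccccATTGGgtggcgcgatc
H2-D1, chr17:35262844-35263093, plus strand: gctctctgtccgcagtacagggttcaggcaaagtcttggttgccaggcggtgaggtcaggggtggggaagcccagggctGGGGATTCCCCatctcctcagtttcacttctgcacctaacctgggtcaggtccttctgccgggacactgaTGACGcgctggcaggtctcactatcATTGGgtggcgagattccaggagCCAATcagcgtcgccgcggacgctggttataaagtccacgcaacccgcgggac
B2m, chr2:122147437-122147686, plus strand: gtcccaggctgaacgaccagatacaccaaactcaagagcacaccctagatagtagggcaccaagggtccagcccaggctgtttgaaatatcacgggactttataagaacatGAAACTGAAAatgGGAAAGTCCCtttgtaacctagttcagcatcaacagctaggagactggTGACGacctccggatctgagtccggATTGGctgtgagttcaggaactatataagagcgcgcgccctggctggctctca
Tap1-Psmb9, chr17:34187331-34187555, strand of Tap1: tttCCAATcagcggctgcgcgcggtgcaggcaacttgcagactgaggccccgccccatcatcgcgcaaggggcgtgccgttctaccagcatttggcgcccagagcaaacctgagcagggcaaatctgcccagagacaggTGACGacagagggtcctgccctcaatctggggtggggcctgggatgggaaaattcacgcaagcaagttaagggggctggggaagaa

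In all 3 genes of the surface molecule, TGACG was followed by ATTGG with 20 bases between them, at positions -41 and -16 of H2-K1, -101 and -76 of H2-D1, and -78 and -53 of B2m. That spacing was searched for only after it was seen in these 3 sequences. Over all genes with a promoter in the RefSeq table, 26 of 27025 (0.096%) held the spaced pair on either strand, and H2-M3, another class I heavy chain, was among them. Of the 8 members with a promoter entry in that table, the other 5 did not hold it in this window. The NF-kB consensus matched in H2-K1, H2-D1 and B2m and in 7.25% of all promoter entries, in H2-K1 and H2-D1 as an overlapping pair of matches. The ISRE core matched in B2m alone among the 8 and in 2.98% of all entries. Only this exact word was searched, so variant forms of the element in H2-K1, H2-D1 or the others would be missed. The core of the interferon-gamma activated site (GAS: TTC, 3 bases of any kind, GAA) matched in Psmb8 alone, at positions -97 to -89, and in 7.02% of all entries. TGACG and the CCAAT box are common, in 17.8% and 33.9% of entries. These matches describe letters in a window and not binding.

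Of the members, 7 lie on chromosome 17. Psmb9, Tap1, Psmb8 and Tap2 are neighbours between positions 34181987 and 34216321, with Tapbp and H2-K1 on one side and H2-D1 farther off. In RefSeq the starts of Tap1 and Psmb9 face away from each other across the 225 bases shown above. GENCODE M21 instead places the start of Psmb9 at 34187764, inside Tap1, which starts there at 34187553. B2m is on chromosome 2, and Psmb10 and Nlrc5 are both on chromosome 8. In the GENCODE M21 annotation, exons of Tap1 and Psmb9 overlap over 212 bases on opposite strands, and antisense genes overlap 14.7% of the exon bases of Psmb8, 18.5% of those of Tap2 together and 24.9% of those of Tapbp. The antisense gene over Psmb8 had at most 2 counts in any library and the one over Tapbp had 0 in all 9. Over Tap2, Gm15821 had 2 to 10 counts in the sham and ligation libraries and 0 to 2 with cells. Zbtb22, which shares 4.11% of the exon bases of Tapbp on the same strand, had 114 to 171. Of the 31-base words in their transcripts, 22.8% for H2-K1 and 26.9% for H2-D1 also occur in other genes, among them H2-Q7 and each other, so reads of these 2 genes are uncertain to that extent. NOD mice are also known to carry a K allele that differs in sequence from that of the reference genome, while their D allele is of the reference type. What that does to the values of H2-K1 was not tested.

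Levels can be ranked between genes only per length, taken here as all annotated exons of a gene merged over its transcripts. This length was 860 bases for B2m, 3660 for Psmb9 and 5476 for Tap1. It can exceed the length of the main mRNA, and by different amounts between genes. The order below holds for this length only, and other lengths were not tested. In sham hearts the order in CPM (gene counts scaled to a fixed library size) per kilobase of exon was B2m, at 1225 ± 64.4 (SD, n = 3), H2-D1 at 323 ± 3.33 and H2-K1 at 97.0 ± 7.49. Psmb10 followed at 86.5 ± 6.92, with a range that overlapped that of H2-K1, and Tapbp at 38.4 ± 1.04. Psmb9, Psmb8 and Tap2, at 19.7, 19.3 and 18.3 CPM per kilobase, overlapped each with its neighbour. Tap1 stood lower at 14.4 ± 1.84 and Nlrc5 lowest at 3.81 ± 0.311. The same 5 genes led in the same order in the ligation and cell groups, and Tap1 and Nlrc5 were last in both.

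**Figure D1:**
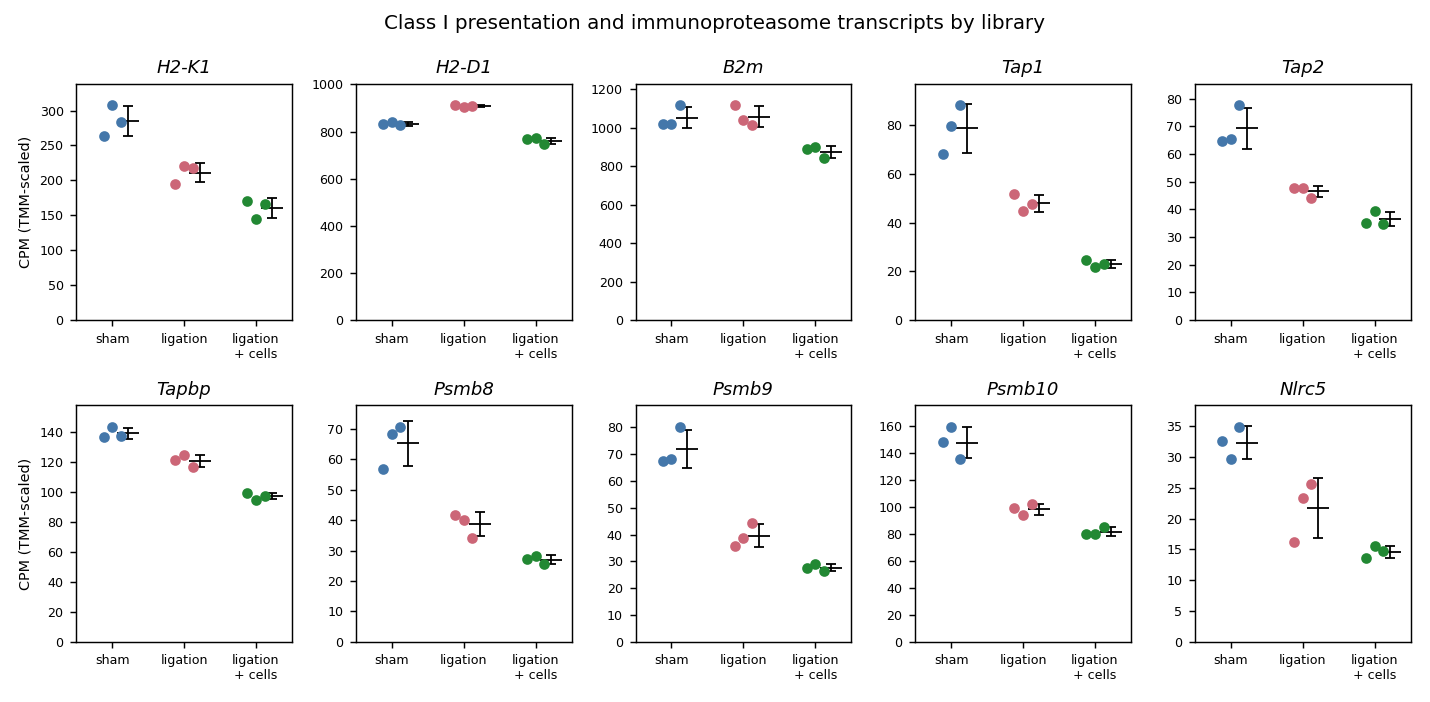
CPM of each of the 10 transcripts, scaled with factors from the trimmed mean of M-values (TMM), on linear axes that start at 0. Each point is 1 library, and black bars give the mean ± SD of 3 libraries. For Tap1 the groups sit at 68.2 to 88.3, 44.7 to 51.6 and 21.6 to 24.8 CPM, while the sham and ligation points of B2m overlap.

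The first comparison asked what ligation changed. With TMM scaling 8 of the 10 transcripts fell after ligation, by 1.15-fold for Tapbp up to 1.80-fold for Psmb9, H2-D1 rose 1.09-fold, and B2m did not pass. Over all tested genes 38.2% had an adjusted p-value under 0.05, 18.0% lower and 20.1% higher (quasi-likelihood F-test of edgeR, p-values adjusted after Benjamini and Hochberg). The library ranges of 8 members lay below sham, of 1 above and of 1 across it, where 22.6% of all tested genes lay below, 25.0% above and 47.6% either way. The median log2 fold change of the members was -0.56, against 0.0080 over all tested genes. With library totals alone 4966 genes were higher and 1346 lower, and these medians were -0.37 and 0.20. In whole tissue, fewer cells of a type and less RNA per cell cannot be told apart.

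Among the immunoproteasome subunits, Psmb9, which replaces the caspase-like subunit, was at 67.5, 68.2 and 80.2 CPM in the sham libraries and at 35.8, 38.8 and 44.1 in ligation. Every sham library was above every ligation library, and the log2 fold change was -0.85 (SE 0.0887, edgeR adjusted p 1.50e-07). Psmb8, which replaces the chymotrypsin-like subunit, was at 56.8, 68.2 and 70.6 CPM in sham and at 41.8, 40.1 and 34.1 in ligation. These groups did not overlap either, with a log2 fold change of -0.77 (SE 0.0941, edgeR adjusted p 1.45e-06). Psmb10, which replaces the trypsin-like subunit, fell from 148 ± 11.8 to 98.2 ± 4.06 CPM (SD, n = 3), a log2 fold change of -0.59 (SE 0.0663, edgeR adjusted p 4.83e-07).

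The transporter subunits changed by similar amounts. Tap1 was at 68.2, 79.7 and 88.3 CPM in sham and at 51.6, 44.7 and 47.5 in ligation. All ligation libraries were below all sham libraries, and the log2 fold change was -0.72 (SE 0.0895, edgeR adjusted p 1.59e-06). Tap2 was at 64.6, 65.4 and 77.6 CPM in sham and at 47.5, 47.8 and 44.1 in ligation, again without overlap (log2 fold change -0.58, SE 0.0836, edgeR adjusted p 1.17e-05). Tapbp, which bridges transporter and heavy chain, moved less, from 139 ± 3.78 to 121 ± 3.93 CPM (log2 fold change -0.21, SE 0.0569, edgeR adjusted p 0.00678), and with library totals alone it did not pass (edgeR adjusted p 0.825).

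The 2 heavy chains went apart. H2-K1 was at 264, 308 and 284 CPM in sham and at 195, 220 and 218 in ligation, a log2 fold change of -0.43 (SE 0.0683, edgeR adjusted p 3.80e-05), or -0.24 with library totals alone. H2-D1 was at 830, 842 and 826 CPM in sham and at 912, 903 and 907 in ligation. The ligation libraries of H2-D1 were all higher, by 0.12 on the log2 scale (SE 0.0371, edgeR adjusted p 0.0119). This call was lost without ligation replicate 3 (edgeR adjusted p 0.0509), and also when libraries with a shared header stem were summed. With library totals alone the rise of H2-D1 was 0.31. Within each library the log2 ratio of H2-K1 to H2-D1 averaged -1.55 ± 0.101 in sham and -2.10 ± 0.104 in ligation (SD, n = 3; exact two-sided permutation p 0.1, the smallest that 3 against 3 libraries allow; adjusted over the 3 comparisons 0.15). This pair was chosen after its values were seen. B2m was at 1021, 1022 and 1117 CPM in sham and at 1119, 1043 and 1015 in ligation, so its groups overlapped (log2 difference 0.0071, SE 0.0462, edgeR adjusted p 0.924). With library totals alone, where the median gene stood at 0.20, B2m passed as higher (0.19, edgeR adjusted p 0.000958).

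Nlrc5, the transactivator, was at 32.6, 29.7 and 34.9 CPM in sham and at 16.2, 23.3 and 25.6 in ligation. Relative to its mean it varied more between ligation libraries than any other member, and all 3 lay below sham (log2 fold change -0.55, SE 0.131, edgeR adjusted p 0.00236). With library totals alone the value was -0.36 (edgeR adjusted p 0.0357).

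**Figure D2:**
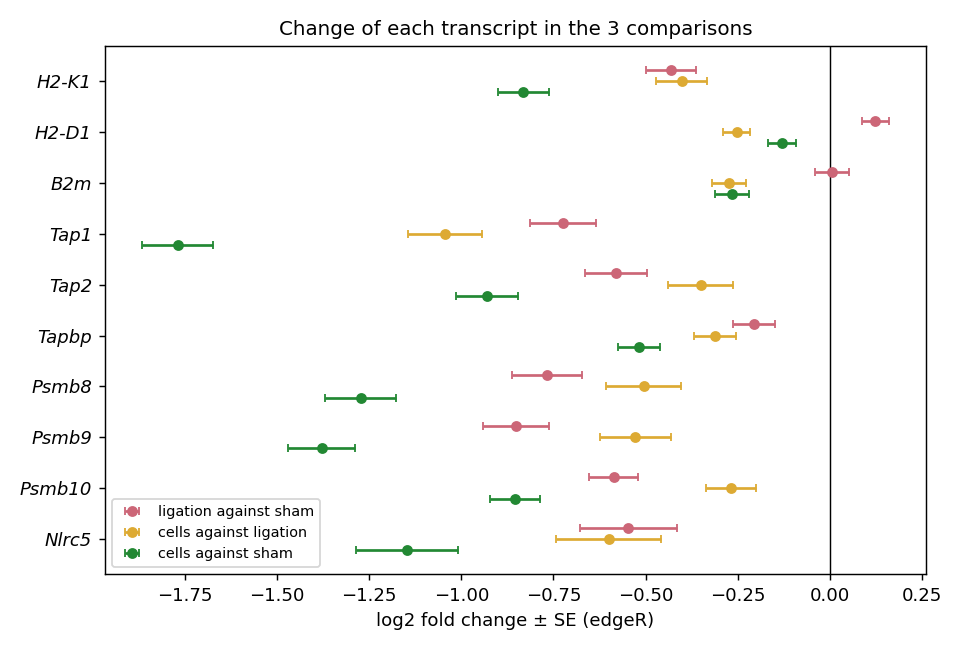
Log2 fold change of each transcript on the horizontal axis, with bars of ± 1 SE from edgeR, for the 3 comparisons in colour. With TMM scaling every point for cells against ligation lies left of 0, and Tap1 has the lowest value in both comparisons that include the cell group.

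Next, hearts with ligation and cells were compared with hearts with ligation alone. All 10 transcripts were lower in the cell group than in ligation, with a median log2 fold change of -0.38 against 0.0020 over all tested genes. Over all genes 9.87% passed 0.05, 5.69% lower and 4.19% higher (786 and 579 genes, or 927 and 436 with library totals alone). Every member's cell libraries lay below its ligation libraries, where 14.0% of all tested genes did so, 13.2% lay above and 27.2% either way. The falls ran from 1.19-fold for H2-D1 to 2.06-fold for Tap1. This comparison shares the ligation libraries with the first.

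Tap1 had the largest change of the 10, from 47.9 ± 3.45 CPM in ligation to 24.8, 21.6 and 22.9 CPM in the cell libraries (log2 fold change -1.04, SE 0.101, edgeR adjusted p 4.20e-07). All cell libraries lay far below the lowest ligation library, at 44.7 CPM. Tap2, the other subunit of the transporter, was at 35.0, 39.3 and 34.7 CPM with cells (log2 fold change -0.35, SE 0.0880, edgeR adjusted p 0.0126). Tapbp was at 99.4, 95.0 and 97.7 CPM with cells, below each ligation library (log2 fold change -0.31, SE 0.0575, edgeR adjusted p 0.00101).

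Of the immunoproteasome subunits, Psmb9 was at 27.7, 28.9 and 26.5 CPM with cells (log2 fold change -0.53, SE 0.0969, edgeR adjusted p 0.000945) and Psmb8 at 27.2, 28.3 and 25.5 (log2 fold change -0.51, SE 0.102, edgeR adjusted p 0.00229). Psmb10 was at 79.6, 80.0 and 85.1 CPM (log2 fold change -0.27, SE 0.0680, edgeR adjusted p 0.0138). All 3 subunits were lower in each cell library than in each ligation library.

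Nlrc5 was at 13.6, 15.5 and 14.7 CPM with cells, and its nearest ligation library was at 16.2 (log2 fold change -0.60, SE 0.143, edgeR adjusted p 0.00852). Of the surface molecule, H2-K1 was at 170, 144 and 166 CPM (-0.40, SE 0.0693, edgeR adjusted p 0.000494). H2-D1 was at 767, 771 and 746 CPM (-0.25, SE 0.0371, edgeR adjusted p 8.51e-05), and B2m at 889, 898 and 842 CPM (-0.27, SE 0.0463, edgeR adjusted p 0.000416). Calls of Tap2, Psmb10 and Nlrc5 depended on single libraries. Tap2 did not pass without ligation replicate 2, cell replicate 1 or cell replicate 3 (edgeR adjusted p 0.0590, 0.0552 and 0.0573), Psmb10 without ligation replicate 3 or cell replicate 1 (0.0778 and 0.0637), and Nlrc5 without ligation replicate 3 (0.0898).

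The cell group was last compared with sham, using libraries of both comparisons above. All 10 transcripts were lower with TMM scaling, with a median log2 fold change of -0.89 against -0.0073 over all tested genes, of which 40.9% passed, 20.0% lower and 21.0% higher. With library totals alone 1698 genes were lower and 4612 higher. All 10 also had ranges below sham, as did 24.5% of all tested genes, while 25.4% lay above and 49.8% either way. Tap1 fell 3.41-fold (log2 fold change -1.77, SE 0.0969, edgeR adjusted p 7.95e-12), Psmb9 2.60-fold (-1.38, SE 0.0917), Psmb8 2.42-fold (-1.27, SE 0.0970) and Nlrc5 2.21-fold (-1.15, SE 0.137). Tap2 fell 1.91-fold, Psmb10 1.81-fold, H2-K1 1.78-fold and Tapbp 1.43-fold. The changes of B2m and H2-D1 were the smallest of the 10, B2m by 1.20-fold and H2-D1 by 1.09-fold (edgeR adjusted p 0.000103 and 0.00819). With library totals alone H2-D1 was the 1 member that turned sign (log2 difference 0.029, edgeR adjusted p 0.551), and B2m moved from -0.27 to -0.11 (edgeR adjusted p 0.0494).

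Whether the inducible subunits moved apart from the constitutive subunits they replace was read from the ratio within each library, which scaling does not touch. Psmb5, the constitutive chymotrypsin-like subunit, and Psmb6, the caspase-like one, also fell after ligation, by 0.84 and 0.63 on the log2 scale (edgeR adjusted p 5.12e-07 and 3.02e-08). Psmb7, the trypsin-like one, had a log2 difference of -0.041 (edgeR adjusted p 0.747). None of the 3 passed between the cell and ligation groups, where their log2 differences were 0.029, 0.081 and 0.15 (edgeR adjusted p 0.902, 0.462 and 0.332). Most of the transcripts of Psmb5 are shared in sequence with pseudogenes, with 71.7% of its 31-base words found in other genes, so its counts are uncertain.

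The log2 ratio of Psmb8 to Psmb5 was -0.37, -0.18 and -0.048 in sham and -0.12, -0.13 and -0.10 in ligation, with overlap, and -0.54, -0.81 and -0.59 in the cell group. The cell libraries stood below all others, by 0.53 against ligation. The log2 ratio of Psmb9 to Psmb6 was -1.60, -1.56 and -1.25 in sham, -1.79, -1.81 and -1.50 in ligation and -2.26, -2.31 and -2.31 with cells. Here too sham and ligation overlapped and the cell libraries were lowest, by 0.59 against ligation. The log2 ratio of Psmb10 to Psmb7 was 0.86, 1.22 and 1.003 in sham, 0.40, 0.43 and 0.60 in ligation, and 0.22, -0.030 and 0.025 with cells, with no overlap between any groups. In exact two-sided permutation tests each difference without overlap had p = 0.1, the smallest 3 against 3 libraries allow, and 0.129 when adjusted over the 9 ratio comparisons. The 2 overlapping differences between ligation and sham, 0.079 for Psmb8 to Psmb5 and -0.23 for Psmb9 to Psmb6, had exact permutation p-values of 0.6 and 0.3, and the first turned sign without sham replicate 1. The second was -0.12 without sham replicate 3 and -0.33 without ligation replicate 3.

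**Figure D3:**
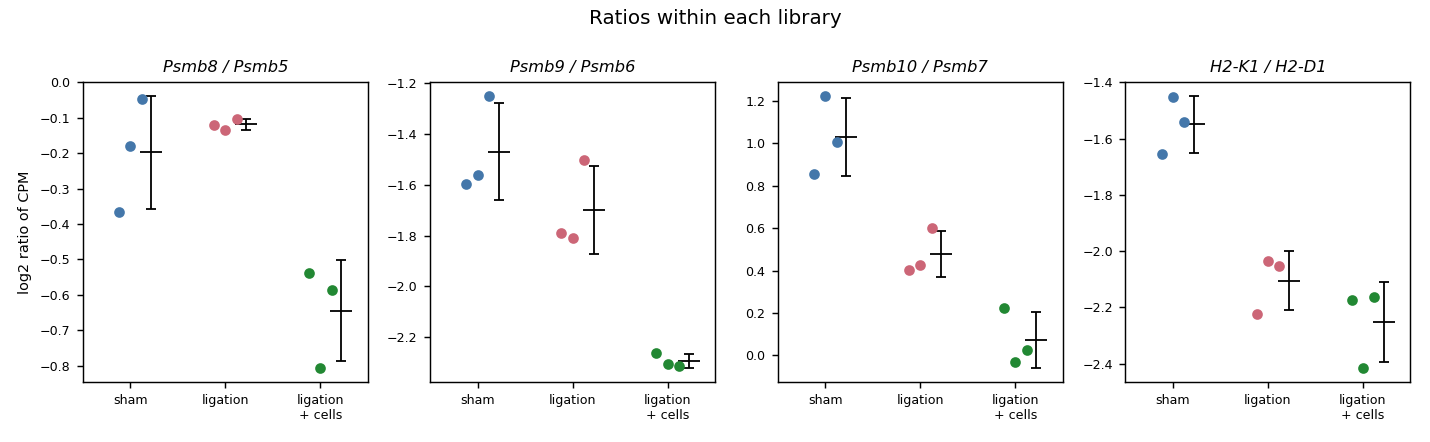
Log2 ratio of CPM within each library for the 3 pairs of inducible and constitutive proteasome subunits and for H2-K1 to H2-D1. Points are libraries, black bars the mean ± SD of 3, and vertical axes differ between panels and do not start at 0. In the 3 proteasome panels the cell libraries are the lowest.

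Other genes of the pathway were taken from lists chosen by function. Of all tested genes 38.2% were called after ligation, 9.87% with cells against ligation and 40.9% with cells against sham. Of 18 other class I heavy chains and related molecules 14 were tested. After ligation 3 were higher and 2 lower, 6 were lower and 0 higher in the cell group against ligation, and 9 were lower and 2 higher in the cell group against sham. H2-T23, which presents leader peptides to natural killer receptors, was at 49.6 ± 3.16 CPM in sham, 21.01 ± 2.33 in ligation and 16.6 ± 2.49 with cells (SD, n = 3). Its fall after ligation was -1.22 on the log2 scale (SE 0.109, edgeR adjusted p 1.71e-08), and that with cells against ligation did not pass (-0.35, edgeR adjusted p 0.0791). H2-T22 fell by 1.31 and H2-Q2 rose by 0.59 after ligation, while H2-Q7, H2-Q4 and H2-M3 fell by 0.61, 0.43 and 0.43 with cells against ligation. Of the 31-base words of H2-T22, H2-Q4, H2-Q7, H2-Q2 and H2-T23, 67.4%, 53.0%, 39.2%, 32.8% and 25.8% occur in other genes, and their counts are uncertain.

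Of 15 genes of endoplasmic reticulum import, loading and trimming, 4 were higher and 3 lower after ligation, and 1 was lower with cells against ligation, the chaperone Calr (-0.22, edgeR adjusted p 0.00171). Against sham 4 were higher and 4 lower with cells, among them the tapasin relative Tapbpl (-0.69, edgeR adjusted p 0.000676). Erap1, which trims peptides for class I, did not pass in any comparison, with log2 differences of 0.064, -0.080 and -0.015. Lnpep, an aminopeptidase of endosomes, rose by 0.95 after ligation (edgeR adjusted p 2.76e-08). Of 8 proteasome activator and assembly genes, 5 were lower and 1 higher after ligation, 1 was lower with cells against ligation, and 5 were lower and 1 higher with cells against sham. Psme1, a subunit of the interferon-inducible activator, was at 170 ± 3.95 CPM in sham, 127 ± 11.9 in ligation and 102 ± 4.72 with cells, and passed in each comparison (edgeR adjusted p 2.26e-05 after ligation and 0.00445 with cells against ligation). Its partner Psme2 fell by 0.76 after ligation, with a difference of -0.040 with cells against ligation (edgeR adjusted p 0.913). Psme4, an activator not induced by interferon, rose by 0.70 after ligation (edgeR adjusted p 6.64e-10).

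Among the transcription factors, Irf1, which binds the ISRE, was at 61.0 ± 4.73 CPM in sham, 43.9 ± 3.62 in ligation and 31.5 ± 3.29 with cells. The log2 fold changes were -0.47 after ligation and -0.48 with cells against ligation (edgeR adjusted p 0.000237 and 0.00161). It had the order of most members, sham above ligation above cells. Irf8, a factor of myeloid cells, was instead highest in ligation, at 22.5 ± 1.99 CPM against 13.02 ± 1.28 in sham and 10.1 ± 0.271 with cells. Of 17 tested interferon and NF-kB regulators 5 were higher and 3 lower after ligation, 6 were lower and 0 higher with cells against ligation, and 6 were lower and 3 higher with cells against sham. Socs3, a feedback inhibitor of cytokine signals, rose by 0.62 after ligation (edgeR adjusted p 0.00357), and Stat2, a factor of type I interferon signals, fell by 0.74 with cells against sham (edgeR adjusted p 1.01e-07). Ifnb1 had 0 counts in all 9 libraries and Ifng 1 count in 1 library; 3 counts, the upper limit that a count of 0 allows, equal 0.375 to 0.639 CPM. Of 9 partners of Nlrc5 and its relative Ciita, 7 passed in neither direction after ligation, Atf1 rose by 0.60 and Nfyc fell by 0.28. Rfx5, Rfxap, Rfxank, Nfya and Nfyb passed in no comparison. Ciita, the transactivator of class II genes, was lower with cells, at 1.41 ± 0.115 CPM against 6.14 ± 1.81 in ligation (-2.14, edgeR adjusted p 6.89e-05). Creb1 rose by 0.33 in that comparison (edgeR adjusted p 0.0132).

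The profile of the members over the 9 libraries was summarised as the mean of their standardised log2 CPM. The genes outside the list most like it, by Pearson's r over 9 libraries that share the 3 groups, were Gbp2 (0.993), Slc43a3 (0.993), Iigp1 (0.992), Pf4 (0.991) and Gm4841 (0.991). Gbp2 and Iigp1 encode interferon-inducible GTPases. Gbp2 was at 111 to 119 CPM in sham, 75.5 to 85.2 in ligation and 43.1 to 47.4 with cells, and Iigp1 at 279 to 306, 121 to 135 and 45.1 to 53.9. Within the list, Tap1 was closest to that mean (0.994) and H2-D1 farthest (0.590), followed by B2m (0.846). These values describe libraries that differ mainly by group and carry no test.

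Cell type markers moved with the groups. The 14 macrophage and monocyte markers summed to 809 to 856 CPM in sham, 1411 to 1436 in ligation and 578 to 589 with cells. After ligation 12 of the 14 were higher and 1 lower, and with cells against ligation 13 were lower. Mrc1, a macrophage marker, did not pass after ligation (log2 difference 0.16, edgeR adjusted p 0.167). The marker lower after ligation, and not called with cells against ligation, was Ly6c2, a monocyte marker. It was at 1.07, 6.10 and 11.1 CPM in sham and 2.98, 1.74 and 2.38 in ligation. Its groups overlapped, with sham replicate 1 below every ligation library. Adgre1, which marks macrophages, was at 15.4 ± 2.03, 32.2 ± 3.73 and 9.89 ± 1.30 CPM, and Ptprc, which marks leukocytes, at 10.9 ± 2.003, 19.3 ± 1.04 and 7.27 ± 0.925. Most macrophage markers rose after ligation, where 8 members fell, and fell with cells, where all 10 members fell. The 8 endothelial markers summed to 2223 to 2351 CPM in sham, 1543 to 1653 in ligation and 1642 to 1690 with cells, with 7 of 8 lower and 1 higher after ligation and 2 higher and 1 lower with cells against ligation. Pecam1 and Cdh5 fell by 0.36 and 0.47 after ligation and had differences of 0.032 and 0.057 with cells. Their part in the members' changes was not tested.

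Neutrophil markers summed to 37.1 to 44.9, 13.6 to 20.1 and 5.47 to 6.24 CPM, and 3 of the 7 were tested. S100a8 and S100a9 were lower in ligation than in sham and lower again with cells. Csf3r, the other one tested, had a difference of 0.64 after ligation (edgeR adjusted p 0.116) and was lower with cells against ligation (-1.99, edgeR adjusted p 0.000656). Of the 8 T cell markers none was tested, Cd3d and Cd8b1 had 0 counts in all libraries, and the list summed to 2.06 to 2.67 CPM in sham, 2.13 to 3.41 in ligation and 1.13 to 2.08 with cells. Of the 6 B cell markers Ms4a1 had 0 counts in all libraries and only Ighm, the heavy chain of IgM, was tested. Ighm was at 10.1 ± 1.35 CPM in sham, 15.7 ± 2.20 in ligation and 5.64 ± 2.15 with cells, higher after ligation and lower with cells against ligation (edgeR adjusted p 0.0133 and 7.00e-05). The 7 natural killer markers, none of them tested, summed to 1.25 to 2.38 CPM in sham, 2.34 to 3.62 in ligation and 0.416 to 0.864 with cells, with Ncr1 and Klrb1c below 1 CPM on average in each group. Dendritic cell markers summed to 45.4 to 54.0, 34.3 to 39.8 and 28.4 to 33.9 CPM, mostly from Zbtb46. Flt3, below 1 CPM on average in each group, Xcr1 and Ccr7 had few counts and were not tested. All their ligation libraries lay above sham, with means of 0.806, 1.24 and 0.570 CPM against 0.0593, 0.389 and 0. Siglech, not tested either, overlapped between these groups. Of the 3 dendritic markers tested, Zbtb46 fell by 0.68 after ligation, Itgax rose by 1.92 (edgeR adjusted p 6.47e-06 and 0.00633) and Clec9a did not pass (-0.28, edgeR adjusted p 0.374). Fibroblast markers summed to 2031 to 2080, 3614 to 3695 and 3365 to 3468 CPM, with 5 of 7 higher and 1 lower after ligation and 2 lower with cells against ligation. Postn, a matrix protein of activated fibroblasts, rose by 2.34 after ligation (edgeR adjusted p 4.26e-17). Cardiomyocyte markers summed to 47947 to 49239, 37010 to 38656 and 35890 to 36673 CPM. After ligation 6 of the 8 were lower and 1 higher, and with cells against ligation 2 were lower and 1 higher. Tnni3 and Myl2 fell by 0.95 and 0.94 after ligation and Myh6 by 0.35, Ryr2 rose by 0.36, and Tnnt2 did not pass (-0.063, edgeR adjusted p 0.172). The part of these lists in the members' changes was not tested.

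**Figure D4:**
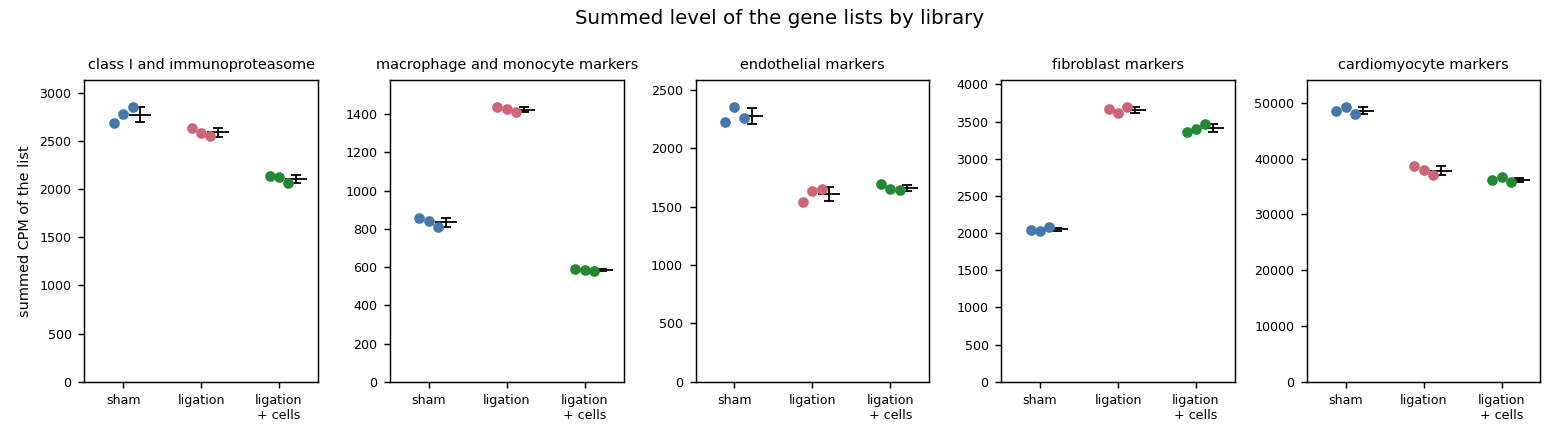
Summed CPM, scaled with TMM factors, of the 10 members and of 4 marker lists in each library, on linear axes that start at 0. Points are libraries and black bars the mean ± SD of 3; the first panel is dominated by B2m and H2-D1. Macrophage markers are highest in ligation (1411 to 1436), while endothelial markers are highest in sham (2223 to 2351).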

How the data were processed

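RNA of the infarct border zone was measured in 9 libraries, 3 per group, made from TRIzol-extracted total RNA with the NEBNext Ultra RNA kit, per the labels' protocols. The authors deposited unnormalized counts of reads for each gene, 1 file a library. The submitters' processing notes name mm10; aligner, counter, strand setting and annotation release are not given in the sources used here. Summary lines in the htseq-count format close each file. Among them, reads outside genes (4.14% to 4.91% of all reads) and ambiguous reads (8.09% to 8.72%) were above 0. These lines stayed out of library sizes and tests.

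Groups and replicate numbers came from the titles. Symbols were matched to 53274 of 53465 IDs with GENCODE M21, which also gave exon lengths, merged over all transcripts of a gene. In R 4.3.3, edgeR 4.0.16 kept 13825 genes (filterByExpr), scaled libraries with TMM factors and fitted 1 model with a mean per group (estimateDisp, glmQLFit, glmQLFTest; 6 residual degrees of freedom). Benjamini-Hochberg adjustment ran over all tested genes, and adjusted p-values under 0.05 were called. The SE is the size of the log2 fold change divided by the square root of the F statistic. Ratios within libraries were compared by exact permutation. Likeness used log2 of CPM plus 0.5. The fit was tested on simulated data.

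All 10 members are named; from each pathway list the named genes were up to 3 called genes of largest change per comparison (mean 1 CPM or more), and the 5 genes most like the members and the first 2 of each marker list were taken, and others were named after their values were seen. Some genes that this rule names are not reported here. Members and lists were chosen with earlier results of these data known. Alternatives covered scaling, filters, DESeq2 1.42.0, 2-group fits, limma 3.58.1 (voom), a replicate block, a fit without mitochondrially encoded genes, leaving out each library and, chosen after the file headers were seen, summing libraries with a shared header stem. Lists were described by counts and medians without set tests. Precision is limited by 3 libraries per group; floors cover counting error only. Whether implanted cells contributed reads was not tested. Figures used matplotlib 3.10.9.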

Additional observations from a re-analysis of the deposited data

Results flagged for a closer look

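Reads that fell outside annotated genes were used in no comparison above. Their share was 4.75% ± 0.155 in the ligation libraries (SD, n = 3), higher than in each sham library (4.21% ± 0.0350) and each library with cells (4.22% ± 0.113). Ligation and sham differed with an exact permutation p of 0.1 (two-sided), the lowest that such groups of 3 can give. For the cell group and sham it was 1. Their origin was not tested.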

How the results depend on the processing

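Over the 19 alternative fits, no called member value turned sign except that of H2-D1 in cells against sham, at 0.029 with library totals alone. B2m in ligation against sham, which did not pass, changed sign with DESeq2 size factors (-0.00065), the DESeq2 Wald test (-0.0016), limma-voom (-0.00044), 2-group fits (-0.0082), mitochondrially encoded genes left out (-0.0094) and summed header stems (-0.013), and ran from -0.033 to 0.052 without single libraries. Library totals alone moved the members' median to -0.37 after ligation and to -0.73 for cells over sham, and took the share of called genes that were higher from 52.7% to 78.7%, from 51.2% to 73.1% and, for cells over ligation, from 42.4% to 32.0%. The median gene then stands at 0.20, 0.15 and -0.028, against 0.0080, -0.0073 and 0.0020 with TMM scaling. Without single libraries the medians ran from -0.60 to -0.49, -0.40 to -0.35 and -0.93 to -0.88, the members called were 8 to 9, 8 to 10 and 10 in every fit, where 4482 to 5459, 951 to 1398 and 5055 to 5746 genes were called, and the difference in the log2 ratio of Psmb8 to Psmb5 between ligation and sham ran from -0.0048 to 0.15. With summed header stems 8, 10 and 10 members passed and 4571, 1101 and 5409 genes (32.5%, 7.83% and 38.5%), H2-D1 being lost in ligation against sham (edgeR adjusted p 0.0738). With the replicate block 9, 10 and 10 members passed, as without it, and 5134, 1230 and 5511 genes. Deviations of same-numbered libraries correlated between -0.121 and 0.133 across 9414 genes, so the numbers were not taken as pairs. The cause of these changes was not tested.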
